A study of Physcomitrium patens with 5 samples.

Results

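Severe drying was compared with full hydration in gametophores (the leaf-bearing shoots) of the moss Physcomitrium patens by bisulfite sequencing of genomic DNA. The genes described here are those with at least 1 entry in the severe dehydration column of the authors' deposited table of differentially methylated regions, which were 30 of the 225 genes in the table. Between them they held 22 distinct regions on 21 scaffolds, a region listed under neighbouring genes being counted once. Plants were grown on BCD medium and were either hydrated (HD) or severely dehydrated (SDH), with 1 library each. The 3 other libraries, from moderate dehydration (MDH), partial rehydration (PRE) and full rehydration (FRE), were each set by the authors against the same hydrated library. The sources used here do not give the moss strain, the age of the plants, the duration of drying, the water content reached or the number of plants pooled.

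DNA methylation in plants is the addition of a methyl group to cytosine, in CG, CHG and CHH contexts, and is kept up by separate methyltransferases. In this moss it lies mainly over transposable elements and repeats, and most genes carry little of it. Bisulfite turns unmethylated cytosine into uracil, so that the share of reads still showing cytosine gives the methylation level. Mosses lose water quickly in dry air, and their gametophores respond to drying through abscisic acid signalling, protective proteins and sugars, antioxidant enzymes and the turnover of damaged proteins.

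Each value is the authors' log2 ratio of methylation levels in the severe over the hydrated library. All listed regions differed at least 2-fold, and the sources used here do not give the coverage, the cytosine context or the number of windows and genes that the authors tested. No replicate spread exists, so each value describes these 2 libraries and no test was made. Which library is the numerator is not stated in the table. A positive value is read as higher methylation after drying because, in the 2 places of the whole table where regions with identical ends occur in 2 comparisons, only this reading leaves a hydrated level that fits both ratios (2 and 6 possible levels on scaffolds 84 and 439, against 0 and 0 for the other reading). Neither of those places is a severe dehydration region, and every direction below rests on this reading.

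Of the 22 regions, 12 were higher and 10 lower after severe dehydration, or 54.5% higher (exact Clopper-Pearson 95% interval 32.2 to 75.6, for counting error over listed regions only). The corresponding shares of listed regions were 70% in moderate dehydration, 12.5% in partial rehydration and 56.1% in full rehydration. By gene, 15 were higher and 15 lower. The regions are linked to glutathione transfer, protein turnover, ribosomal proteins, phenylpropanoid synthesis, sugar handling and gene regulation, with at most 5 genes in any of the groups. Resistance proteins and photosynthesis had 0 genes among the 30, and only 4 and 3 among the 225 genes of the table. The group of late embryogenesis, dehydrin, chaperone and osmolyte proteins had 0 in both. These counts are too small to set the severe list apart. A gene counts in a group when its annotation in the authors' table matches a keyword, and the group shares are read against the 54.5% above.

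**Figure D1:**
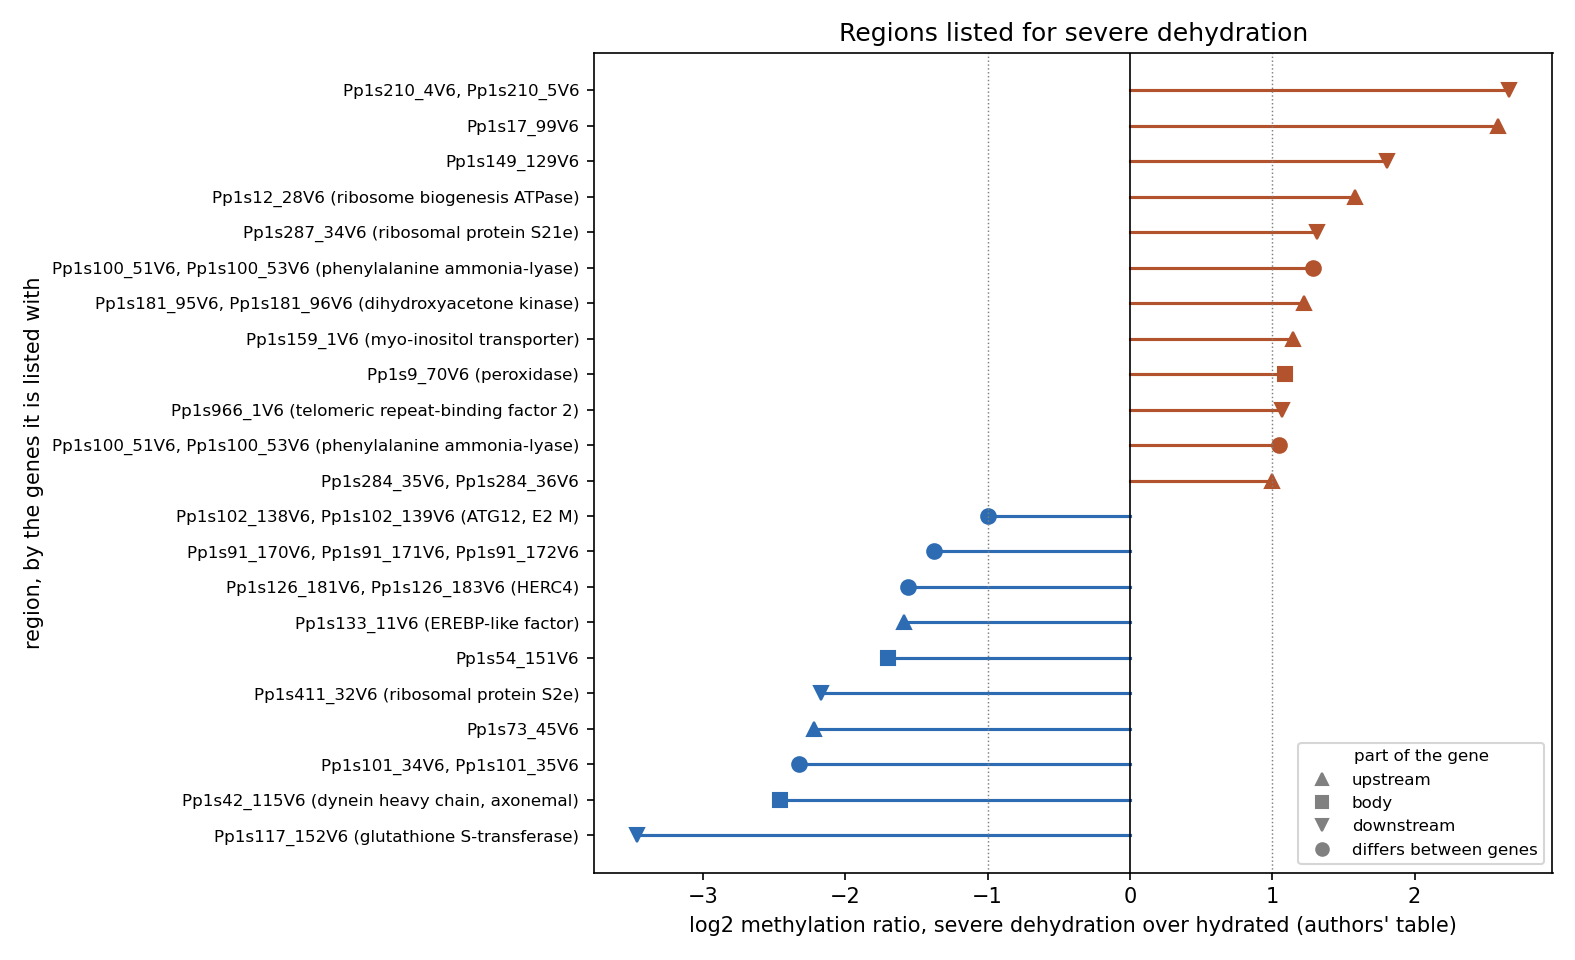
Each line is 1 of the 22 regions, labelled by the genes it is listed with, and its end marks the authors' log2 methylation ratio of the severe over the hydrated library (horizontal axis). Marker shape gives the part of the gene, and dotted lines mark the 2-fold limit of the table. The 10 lower regions reach -3.46, while 8 of the 12 higher regions lie below 1.5.

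The deposited ratios limit the levels behind them. Each of the 22 ratios equals a fraction of 2 whole percents within a relative tolerance of 1e-09, as do all 224 ratios of the table once a level of 0 is taken as 0.001. Where several pairs of whole percents give the same ratio, only the range they span is known. A single pair was possible for 2 of the 22 severe regions (9.09%), against 36.6% over the table. That share was 20.0% in moderate dehydration, 27.5% in partial and 47.7% in full rehydration, which holds most regions of the table. Levels of 0 occurred in 0 of the 22 severe regions, 2 of 30 in moderate dehydration, 1 of 40 in partial rehydration and 19 of 132 (14.4%) in full rehydration. With 0 of 22, the limit of 3 counts is 13.6%, which is below the 14.4% of full rehydration. The exact 95% interval, for counting error over listed regions only, reaches 15.4%, which includes the shares of all the other comparisons. The 2 limits thus differ on full rehydration, and these shares do not set the severe comparison apart from it.

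**Figure D2:**
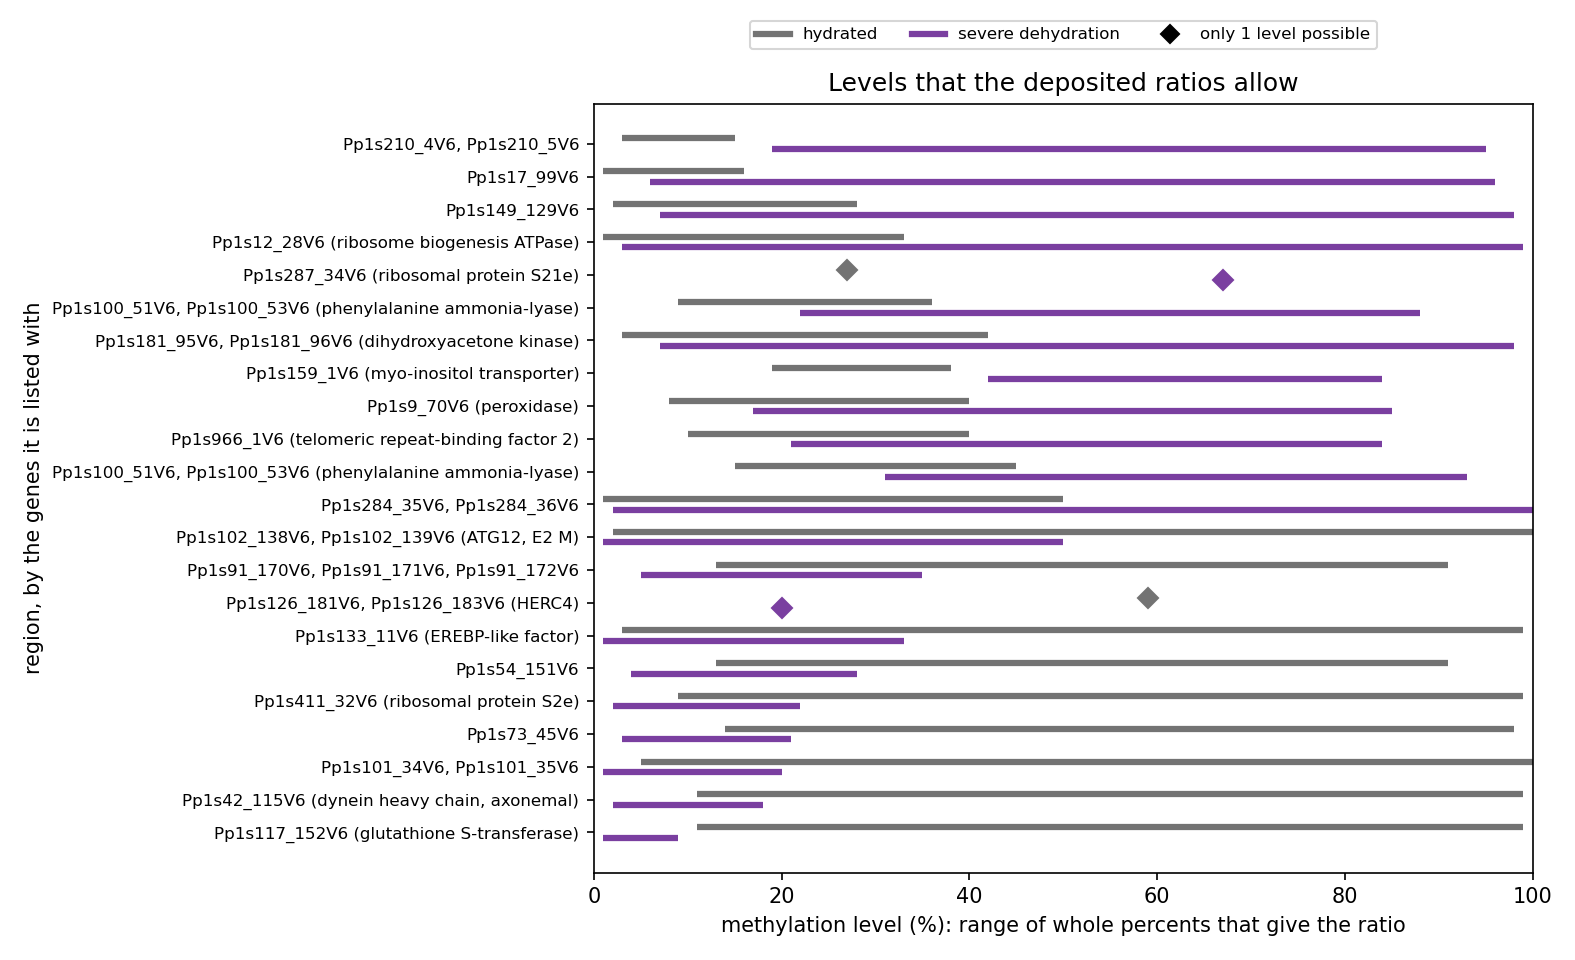
For each region the bars span, in percent methylation (horizontal axis), the whole-percent levels of the hydrated library (grey) and the severe dehydration library (purple) that give the deposited ratio. Both bars of a region move together, since their ratio is fixed, and diamonds mark the 2 regions with a single possible pair, 59% and 20% at HERC4 and 27% and 67% at ribosomal protein S21e.

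The 3 genes matched to protein turnover were listed with lower methylation, in only 2 regions. The group of ubiquitin, proteolysis and autophagy held 3 genes in 2 regions, with 0 higher and 2 lower regions and a median log2 ratio of -1.28, beside -1.94 over all 10 lower regions. It held 7 of the 225 genes of the table (3.11%) and 3 of the 30 here. With 2 regions, the direction cannot be set apart from the 12 higher and 10 lower of all 22. HERC4 (Pp1s126_183V6), annotated as a ubiquitin ligase, the enzyme class that attaches ubiquitin to target proteins, was listed at -1.56 (log2) in its upstream flank in the authors' deposited table. This region lies on scaffold 126 from 1155071 to 1155373 and is also within 2 kb downstream of Pp1s126_181V6, which has no annotation. Its level could be recovered without ambiguity, and was 59% in the hydrated and 20% in the severely dehydrated library, a difference of -39 percentage points. The definition of Pp1s126_183V6 ends in a further orthology identifier, so its identity as HERC4 is not settled.

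The other region of protein turnover was shared by ATG12 and a conjugating enzyme. ATG12 (Pp1s102_138V6) is a ubiquitin-like protein that is joined to its partner during the growth of the autophagosome membrane. Its neighbour Pp1s102_139V6 is annotated as ubiquitin-conjugating enzyme E2 M, which in mammals carries the ubiquitin-like protein NEDD8. The region, on scaffold 102 from 904611 to 904873, is downstream of ATG12 and upstream of the conjugating enzyme, and stood at -1 on the log2 scale in the authors' deposited table. That is exactly 2-fold lower, at the limit of the table, and 50 pairs of levels allow it, with a difference anywhere between -1 and -50 percentage points.

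Phenylpropanoid and redox genes were listed in both directions. The group held 5 genes, 4 higher and 1 lower, in 4 higher regions and 1 lower region. It held 11 of the 225 genes of the table (4.89%) and 5 of the 30 here. With 5 regions, of which 2 overlap, the direction cannot be set apart from the 12 higher and 10 lower of all 22. The lower member was a glutathione S-transferase gene (Pp1s117_152V6), whose product joins glutathione to toxic or oxidised compounds. Its downstream region on scaffold 117, from 956372 to 956607, had the largest ratio of the comparison in either direction, -3.46 in the authors' deposited table. The ratio is exactly 11 to 1, so the hydrated level was between 11% and 99%, and the level after severe dehydration was between 1% and 9%.

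The genes for phenylalanine ammonia-lyase, the enzyme that opens phenylpropanoid synthesis by releasing ammonia from phenylalanine, were higher. Pp1s100_51V6 and Pp1s100_53V6 shared 2 regions on scaffold 100, which overlap by 206 bases. The first, from 270021 to 270316, is downstream of Pp1s100_51V6 and upstream of Pp1s100_53V6, and was listed at 1.29 (log2) in the authors' deposited table. The second, from 270110 to 270444, reaches the body of Pp1s100_53V6 and had a ratio of 1.05 in the authors' deposited table. Possible hydrated levels were 9% to 36% in the first and 15% to 45% in the second, and possible levels after drying 22% to 88% and 31% to 93%. As these regions share bases and both genes, they are a single locus and not independent listings.

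A peroxidase gene (Pp1s9_70V6) was higher in its body, on scaffold 9 from 607316 to 607549, at 1.09 in the authors' deposited table. Peroxidases reduce hydrogen peroxide and also couple phenolic compounds in cell walls. The level was between 8% and 40% in the hydrated library and between 17% and 85% after severe dehydration. The remaining gene of the group is the myo-inositol transporter gene described below, which matches through an oxidoreductase term and not through its orthology definition.

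Genes matched to ribosome and translation were listed in both directions, with 2 of the 3 members higher. The group held 11 of the 225 genes of the table (4.89%) and 3 of the 30 here. With 3 regions, this balance cannot be set apart from the 12 higher and 10 lower of all 22. The gene for ribosomal protein S21e (Pp1s287_34V6), a component of the small subunit, went from 27% in the hydrated library to 67% after severe dehydration in its downstream region on scaffold 287, from 194507 to 194741. The change of 40 percentage points corresponds to the log2 value of 1.31 in the authors' deposited table. Pp1s411_32V6, which encodes ribosomal protein S2e, also of the small subunit, was lower, at -2.17 downstream of the gene in the authors' deposited table. That region is on scaffold 411 from 204120 to 204419, and its level after drying was at most 22%. Downstream flanks of the 2 small-subunit genes thus differed from the hydrated library in opposite directions.

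The third member, annotated as a ribosome biogenesis ATPase (Pp1s12_28V6), belongs to the assembly of ribosomal subunits. Its upstream region on scaffold 12, from 206942 to 207247, stood at 1.58, exactly 3-fold higher, in the authors' deposited table. The gene ontology terms of this gene include hexokinase activity, which its orthology definition does not name, so the columns of the table differ on what it encodes. Through that term it also counts among the kinases and phosphatases and in lipid and sugar metabolism.

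All 4 genes matched as kinases and phosphatases were higher, in 3 regions with a median of 1.58, beside 1.26 over all 12 higher regions. The group held 22 of the 225 genes of the table (9.78%) and 4 of the 30 here. That median is the value of the ribosome biogenesis ATPase gene, matched through its hexokinase term. With 3 regions, the direction cannot be set apart from the 12 higher and 10 lower of all 22. The pair Pp1s210_4V6 and Pp1s210_5V6, with ontology terms for protein kinase activity and no orthology definition, shared the highest ratio of the comparison. Their common downstream region on scaffold 210, from 25926 to 26272, had 2.66 in the authors' deposited table. The hydrated level there was between 3% and 15% and the level after drying between 19% and 95%. Dihydroxyacetone kinase (Pp1s181_95V6), which phosphorylates a small sugar and is no protein kinase, was the only member with a kinase in its orthology definition. Its upstream region on scaffold 181, from 634025 to 634240, stood at 1.22 in the authors' deposited table. The same region is upstream of Pp1s181_96V6, a gene with a term for a general RNA polymerase II transcription factor.

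Sugar and polyol transport was represented by 1 gene. Pp1s159_1V6 is annotated as a myo-inositol transporter of the major facilitator family, and myo-inositol is a precursor of protective sugars and of membrane and signalling lipids. Its upstream region on scaffold 159, from 1893 to 2098, was at 1.14 (log2) in the authors' deposited table. Only 2 pairs of levels were possible, 19% and 42% or 38% and 84%, so that methylation was at least 23 percentage points higher after severe dehydration. The wider group of lipid and sugar metabolism held 4 genes, 3 higher and 1 lower. Besides the transporter, these are the dihydroxyacetone kinase and ribosome biogenesis ATPase genes above and the dynein gene below, which matches through an acyl transfer term. Lipid and sugar metabolism held 13 of the 225 genes of the table (5.78%) and 4 of the 30 here. Transporters and ATPases were the transporter and the ribosome biogenesis ATPase, both higher. That group held 6 of the 225 genes (2.67%) and 2 of the 30 here. With 4 and 2 regions, neither direction can be set apart from the 12 higher and 10 lower of all 22.

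Genes matched to transcription factors and chromatin were listed in both directions, 2 higher and 2 lower of 4. The group held 16 of the 225 genes of the table (7.11%) and 4 of the 30 here. By orthology definition only 1 of them matched, Pp1s133_11V6. With 4 regions, the balance cannot be set apart from the 12 higher and 10 lower of all 22. The EREBP-like gene Pp1s133_11V6 belongs to the AP2/ERF transcription factors, a plant family with many members that respond to ethylene, cold and drought. It was exactly 3-fold lower upstream (scaffold 133, 112411 to 112718), or -1.58 in the authors' deposited table, and 33 pairs of levels allow this ratio. It was also the 1 gene of the hormone signalling group, which held 4 of the 225 genes of the table (1.78%). The other EREBP-like gene of the table, Pp1s120_13V6, was not listed for severe dehydration and had upstream ratios of -1.58 in partial and -4.07 in full rehydration in the authors' deposited table. A gene annotated as telomeric repeat-binding factor 2 (Pp1s966_1V6), a protein of chromosome ends in animals, was higher downstream, at 1.07 in the authors' deposited table (scaffold 966, 3194 to 3451). Its definition also ends in a further orthology identifier, so its identity as telomeric repeat-binding factor 2 is not settled. Pp1s966_1V6 was the 1 gene of the RNA and DNA processing group, which held 9 of the 225 genes of the table (4%). The higher gene Pp1s181_96V6 was described above. The remaining lower member, the dynein gene Pp1s42_115V6, matches through a transcription term among its many motor terms.

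That axonemal dynein heavy chain gene encodes a motor of the kind that bends flagella, which in mosses are found on the sperm. Of the cytoskeleton and motor group, with 7 of the 225 genes of the table (3.11%), it was the 1 gene here. Its body region on scaffold 42, from 985303 to 985541, had the second lowest ratio, -2.46 in the authors' deposited table, and at most 18% methylation after severe dehydration. The other gene of the table with the same definition, Pp1s214_25V6, was listed in partial rehydration only, also in its body, at -1 in the authors' deposited table.

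Further lower genes carried ontology terms and no orthology definition. Pp1s73_45V6, with a term for a transferase of single-carbon groups, stood at -2.22 upstream, on scaffold 73 from 197999 to 198230, in the authors' deposited table. Pp1s54_151V6, with terms for signal transduction and response to stimulus, stood at -1.70 in its body, on scaffold 54 from 970123 to 970396, in the authors' deposited table. A region on scaffold 91, from 1053489 to 1053777, was listed with 3 neighbouring genes at -1.38 in the authors' deposited table. It is downstream of Pp1s91_170V6, which has a term for an organelle, and of Pp1s91_171V6, and upstream of Pp1s91_172V6. Levels after drying were at most 21%, 28% and 35% in these 3 regions.

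Of the 30 genes, 9 (30.0%) had no annotation, against 43.6% of the 225 genes of the table. They held 6 regions, 3 higher and 3 lower, of which 4 were linked to no annotated gene. Upstream of Pp1s17_99V6 (scaffold 17, 471919 to 472157) the authors' deposited table has 2.58, the second highest ratio and exactly 6-fold. The region between 205492 and 205706 on scaffold 101, upstream of Pp1s101_34V6 and downstream of Pp1s101_35V6, had -2.32 in the authors' deposited table, which is exactly 5-fold lower. Downstream of Pp1s149_129V6, on scaffold 149 from 433784 to 434135, the ratio was 1.81 in the authors' deposited table. The longest region of the comparison, on scaffold 284 from 309651 to 310275, lies upstream of both Pp1s284_35V6 and Pp1s284_36V6 and was exactly 2-fold higher in the authors' deposited table.

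Among the 22 severe dehydration regions, the larger ratios were mostly on the lower side. Among ratios of 1.5 or more in size (log2), 4 regions were higher and 8 lower, and below that size 8 were higher and 2 lower. Among those of 2 or more, which is 4-fold, 2 regions were higher and 5 lower, or 28.6% higher, so that the balance of directions turns with the size required. The median ratio was 1.26 among the higher regions and -1.94 among the lower ones. Lower regions also had the larger median size in the other comparisons, with medians for higher and lower regions of 1.21 and -2.46 in moderate dehydration, 1.34 and -1.38 in partial rehydration, and 1.39 and -1.81 in full rehydration. The split at 1.5 or more was not the same in all of them. Moderate dehydration had 8 higher and 7 lower regions, partial rehydration 2 and 11, and full rehydration 34 and 36. Over all comparisons 43.6% of the regions of that size were higher. The 4 comparisons share the hydrated library, so these are not separate observations.

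**Figure D3:**
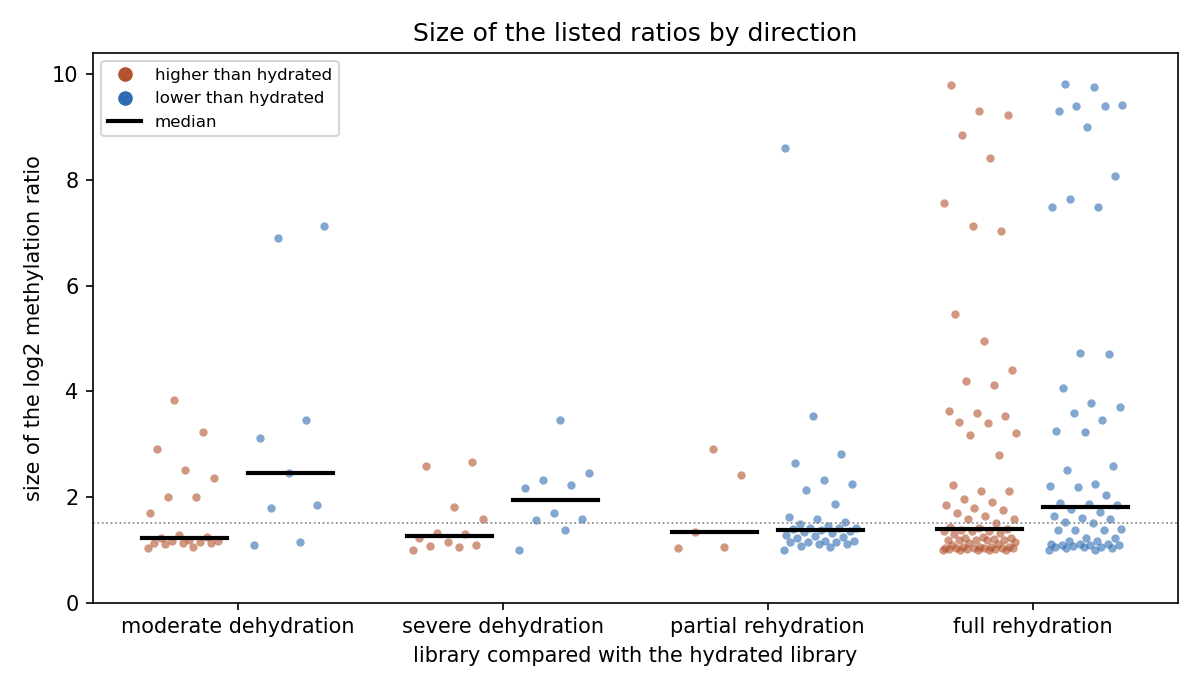
Each point is a listed region, placed by the library compared with the hydrated library (horizontal axis) and the size of its log2 methylation ratio (vertical axis), with higher and lower regions side by side and a bar at each median. The dotted line is at 1.5, and the sizes near 7 and above involve a level of 0 entered as 0.001. Severe dehydration has no point above the glutathione S-transferase region, whose ratio is -3.46.

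Severe dehydration regions lay mainly in the flanks of genes. Of the 32 pairs of a gene and a region, 14 were upstream, 4 in the body and 14 downstream. Of the upstream entries 8 were higher and 6 lower, of the downstream entries 7 and 7, and of the body entries 2 and 2. The share in gene bodies was 12.5%, against 7.69% in moderate dehydration, 24.5% in partial and 17.0% in full rehydration. Region length, as end minus start, had a median of 267.5 bases (range 205 to 624), against medians of 301.5, 303.5 and 354 in moderate dehydration, partial rehydration and full rehydration. A region was listed with more than 1 gene in 9 of 22 cases (40.9%), against 26.7%, 20.0% and 9.85% in the same order. These shares are descriptions, and their differences were not tested.

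Of the 30 genes, 26 (86.7%) were listed for severe dehydration alone. The corresponding shares were 81.6% of the genes of moderate dehydration, 82.6% of partial and 89.8% of full rehydration, and 209 of the 225 genes of the table were listed in a single comparison, so a single listing is common to all of them. With moderate dehydration, 3 genes were shared, which is 10% of the severe and 7.89% of the moderate list. Full rehydration shared 1 gene, 3.33% of the severe and 0.787% of its own list, and partial rehydration shared 0. By position, 2 of the 22 regions shared at least 1 base with a region of another comparison, both with moderate dehydration. Overlap was not counted for the regions of the other comparisons, so 2 of 22 cannot be called few or many. The 12 regions on 12 of the 21 scaffolds that held no region of any other comparison include those of HERC4, ATG12, the glutathione S-transferase and both small-subunit ribosomal proteins. The 224 regions of the table are spread over 163 scaffolds. The same count was not made for the other comparisons, so it does not set these genes apart.

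At the kinase genes Pp1s210_4V6 and Pp1s210_5V6, the moderate and severe regions had the same end and starts 7 bases apart. The log2 ratios in the authors' deposited table were 3.22 in moderate and 2.66 in severe dehydration. If the hydrated level was the same in both, it could be 3%, 6% or 9%, which gives 28%, 56% or 84% in moderate and 19%, 38% or 57% in severe dehydration. With a common hydrated level, the severe level lies between the hydrated and the moderate level because 2.66 is below 3.22. The order restates the 2 ratios and adds nothing to them. At the ribosome biogenesis ATPase gene Pp1s12_28V6 the regions had the same start and ends 33 bases apart, with 1.24 in moderate and 1.58 in severe dehydration in the authors' deposited table. A common hydrated level would be 14% or 28%, with 33% or 66% in moderate and 42% or 84% in severe dehydration. With the hydrated library as the numerator, 0 common levels would fit at the kinase genes and 3 at Pp1s12_28V6. The regions at Pp1s12_28V6 therefore do not settle which library is the numerator. Here the 2 ratios place the severe level as the highest of the 3. Because the regions differ at 1 end, their hydrated levels need not be equal, and without replicates neither order can be set against an error.

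At the myo-inositol transporter gene Pp1s159_1V6, no base was shared. The regions of full rehydration began 73 and 157 bases after the end of the severe dehydration region, with log2 ratios of 1.43 and 1.05 in the authors' deposited table, beside 1.14 in severe dehydration. All lie upstream of the gene and all were higher than in the hydrated library. The 2 full rehydration regions are nested, 2255 to 2740 within 2171 to 2795, and so form a single locus. Both comparisons use the same hydrated library, so the common direction is not a separate observation.

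**Figure D4:**
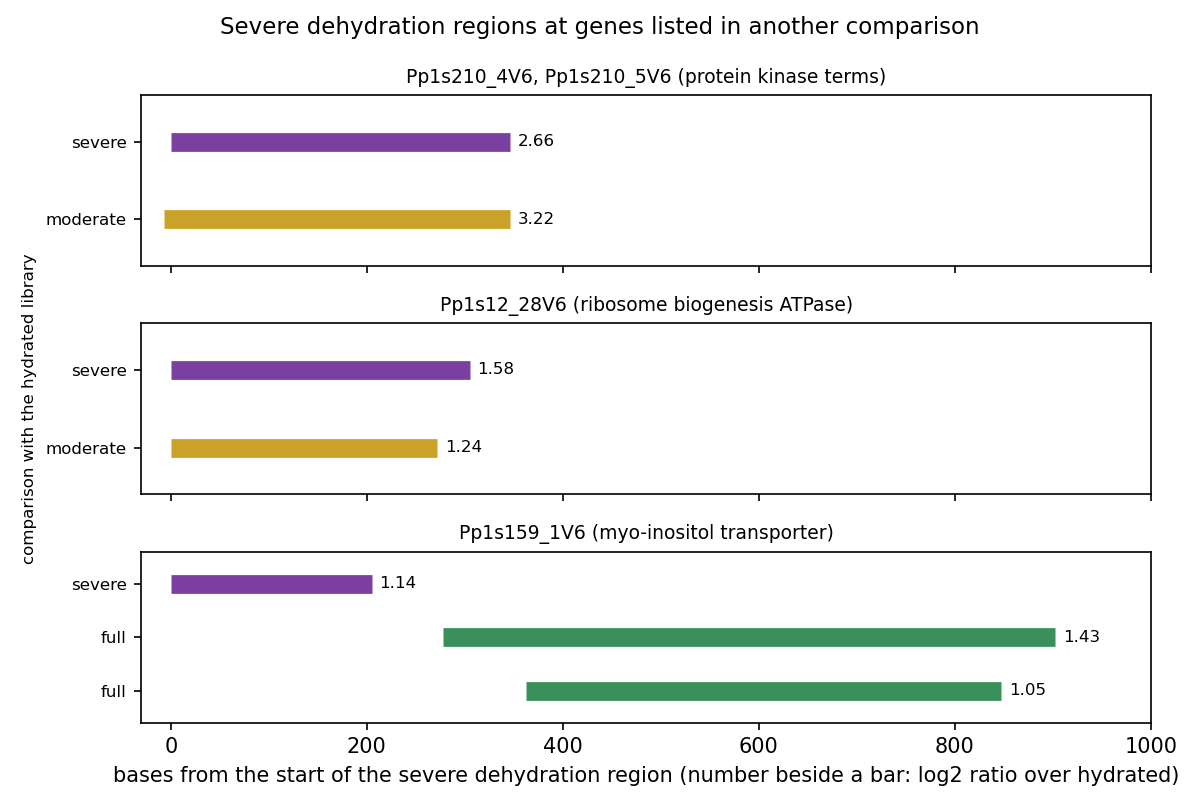
Bars show, for the 3 loci whose genes were listed in another comparison as well, each region's extent in bases from the start of the severe dehydration region (horizontal axis), with the log2 ratio beside it. The severe and moderate regions nearly coincide at the kinase pair (2.66 and 3.22) and at the ribosome biogenesis ATPase gene (1.58 and 1.24), while at the transporter gene the severe and full rehydration regions lie next to each other.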

How the data were processed

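DNA methylation was measured in 5 bisulfite libraries, 1 per state. Per the labels' protocols, DNA was sonicated, ligated to methylated adaptors, bisulfite-converted, amplified and size-selected. The authors deposited a table of their 4 comparisons with the hydrated library. Per the file headers, each entry holds a gene part (the flanks reach 2 kb), a start, an end, a methylation ratio and a direction. The values are on a log2 scale, as read from the table, where every sign matched its direction word. The sources used here do not give the aligner, region caller, thresholds, genome build or coverage, so depth is unknown. Scaffold coordinates and gene names are those of the table, and the reference gene table held 0 of the identifiers.

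Entries were parsed with Python 3.11.15, and regions with identical ends within a comparison were counted once. Levels were sought among all pairs of whole percents, a search tested on simulated data. Exact intervals came from SciPy 1.17.1. Groups of genes came from 13 keyword lists. Members, lists and groups were chosen with earlier results of these data known. All annotated genes are named, and unannotated ones where they have an extreme ratio, a named neighbour or a listing elsewhere. Pp1s284_35V6 and Pp1s284_36V6 fall outside this rule and were added after their values were seen. With 1 library per state no test was possible.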

Additional observations from a re-analysis of the deposited data

How the results depend on the processing

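The share of regions higher was 54.5%, and 53.1% when every gene and region pair was counted, 52.4% with overlapping regions merged, 50% among regions with an annotated gene, 33.3% among ratios of 1.5 or more in size (log2) and 28.6% among those of 2 or more. Below 1.5, a split chosen after seeing the data, it was 80%. The median size was 1.57 (order-statistic 95% interval 1.14 to 2.22, for listed regions of these 2 libraries only, taken as independent although 2 of them overlap) and between 1.38 and 1.58 under the other ways of counting. Of the 2 regions shared with another comparison, both also shared at least 50% of the shorter region and 0 had identical ends. Counted by region, 12 were listed upstream, 4 in a body and 12 downstream of a gene, where 6 of the 22 regions count under more than 1 part. By orthology definition alone, kinases and phosphatases numbered 1 in place of 4 genes, lipid and sugar metabolism 2 in place of 4, transcription factors and chromatin 1 in place of 4, and the phenylpropanoid and redox group 4 in place of 5, since fewer annotation columns are searched. The other 9 lists kept their counts. No library could be left out and no paired analysis was possible because each state had 1 library. Whole percents limit the precision of low levels, and unknown coverage limits all of them.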

Other observations

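Regions shared by neighbouring genes were grouped by the parts of the genes they are listed with. Of the 4 regions listed as downstream of a gene and upstream of its neighbour, 1 was higher, at the phenylalanine ammonia-lyase genes, and 3 were lower, at ATG12, at HERC4 and at the unannotated pair Pp1s101_34V6 and Pp1s101_35V6. The 2 regions upstream of both neighbours, at Pp1s181_95V6 and at Pp1s284_35V6, were higher, and so were the 1 region downstream of both, at Pp1s210_4V6, and the 1 region in the body of Pp1s100_53V6 and downstream of Pp1s100_51V6. The region listed with 3 genes on scaffold 91 was lower. These counts were taken after the values had been seen and were not tested.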
